A study of Homo sapiens with 38 samples.

Results

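The comparison described here is the response to 2 h of interleukin 1 beta (IL1B) in A549 cells depleted of ORMDL3. A549 is an established line from a human lung adenocarcinoma that keeps traits of alveolar epithelial cells. The arrays were chosen by title and hour: 4 arrays of ORMDL3 knockdown cells at 2 h against 3 arrays of ORMDL3 knockdown cells at 0 h, or 7 of the 38 arrays of the series, across all 14488 probe sets of the deposited values. Knockdown cells had received an ON-TARGETplus SMARTpool of siRNAs to ORMDL3, were silenced for 48 h and were kept without serum for 24 h. The 2 h arrays then had 1 ng/ml IL1B, and the 0 h arrays had none. Beside them, 4 control arrays at 2 h and 4 control arrays at 0 h served for the same comparison in cells with ORMDL3. These control arrays are recorded with the same 48 h silencing step and 24 h without serum. They had the same IL1B dose as the knockdown arrays of their hour, 1 ng/ml at 2 h and none at 0 h. The sources used here do not give the transfection of the control cells. No untreated array stands at 2 h among the samples used, so IL1B and 2 further hours in culture cannot be told apart. Whether replicates were separate cultures is not stated, and the p-values therefore measure the spread between these arrays, which may be technical. Levels are log2 values per probe set, and a probe set that the annotation gives a single gene symbol is called by that gene.

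ORMDL3 sits in the membrane of the endoplasmic reticulum and holds back serine palmitoyltransferase, the enzyme that opens sphingolipid synthesis. IL1B binds the receptor IL1R1 and its partner IL1RAP, and the adaptor MYD88 with IRAK kinases and TRAF6 passes the signal to the kinase TAK1, to IkB kinase and to the MAP kinases. IkB kinase releases NF-kB, a family of dimeric transcription factors, from its IkB inhibitors, and in epithelium NF-kB drives genes for chemokines, cytokines and adhesion molecules. Several of its target genes encode its own inhibitors, and many of the early transcripts carry AU-rich elements and are short-lived.

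ORMDL3 had log2 levels of 5.00, 5.17, 5.32 and 5.10 on the knockdown arrays at 2 h and 7.15, 7.38, 7.11 and 7.11 on the control arrays at 2 h, and the arms did not overlap. The means were 5.15 ± 0.13 (SD, n = 4) and 7.19 ± 0.13 (SD, n = 4), so the knockdown level was 24.3% of control (exact two-sided permutation test, p = 0.029, the smallest these group sizes allow). At 0 h the knockdown level was 28.9% of control. Between the knockdown arrays at 2 h and at 0 h, whose levels were 5.49, 5.19 and 5.47, ORMDL3 differed by -0.24 ± 0.12 (limma adjusted p = 0.147), and the groups overlapped. Array medians lay between 8.08 and 8.19 on the log2 scale over the 7 knockdown arrays. Of 7 measured lung epithelial markers LAMP3 rose by 1.45 and EPCAM fell by 0.44, a call lost without any 1 of the 0 h arrays or of replicates 1 and 2 at 2 h (adjusted p up to 0.12), and the other 5 did not pass the test. The summed level of the 7 lay between 70.80 and 72.34 on the arrays at 2 h and between 70.39 and 71.46 at 0 h. The 2 measured leukocyte markers, CD14 and ITGAM, did not pass it, and of the 2 measured fibroblast and endothelial markers CDH5, an endothelial cadherin, rose by 1.14 to a level of 6.34, below the lower quartile of array levels (6.64). The part of these markers in the other results was not tested.

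Promoters of some genes that lead the response are shown here for the kB motif, the sequence that NF-kB dimers bind. The sequences are RefSeq's, build GRCh38.p14, from 250 bases before to 50 bases after the gene start, written 5′ to 3′ along the gene, with matches to the kB consensus on either strand in capitals. CCL20, IL6, SELE, TNFAIP3 and IRF1 are among the largest rises, TNFRSF9 also differed between the arms, and PDK4, a large fall, has no match and stands for comparison. Each rise shown holds a match, whereas IL1A, ICAM1 and IL1B, also among the largest rises, have none and are not shown.
CCL20, chr2:227813592-227813891, plus strand: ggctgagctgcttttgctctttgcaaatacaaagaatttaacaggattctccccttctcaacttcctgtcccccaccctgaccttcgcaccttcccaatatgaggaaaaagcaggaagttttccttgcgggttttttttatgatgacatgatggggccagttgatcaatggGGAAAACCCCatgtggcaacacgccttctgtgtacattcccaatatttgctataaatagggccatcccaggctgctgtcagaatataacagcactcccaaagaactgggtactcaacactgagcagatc
IL6, chr7:22726950-22727249, plus strand: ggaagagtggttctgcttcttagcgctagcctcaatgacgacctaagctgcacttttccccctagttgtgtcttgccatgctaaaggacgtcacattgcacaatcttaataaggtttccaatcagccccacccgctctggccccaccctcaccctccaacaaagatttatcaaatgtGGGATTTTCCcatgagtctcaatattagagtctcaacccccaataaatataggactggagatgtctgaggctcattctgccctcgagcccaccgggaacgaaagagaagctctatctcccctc
SELE, chr1:169734030-169734329, minus strand: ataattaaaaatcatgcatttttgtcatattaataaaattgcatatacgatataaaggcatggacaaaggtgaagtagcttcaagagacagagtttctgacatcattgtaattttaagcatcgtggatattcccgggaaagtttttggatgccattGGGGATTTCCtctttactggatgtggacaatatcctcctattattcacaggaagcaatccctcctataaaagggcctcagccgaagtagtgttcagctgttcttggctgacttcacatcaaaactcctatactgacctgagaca
TNFAIP3, chr6:137867009-137867308, plus strand: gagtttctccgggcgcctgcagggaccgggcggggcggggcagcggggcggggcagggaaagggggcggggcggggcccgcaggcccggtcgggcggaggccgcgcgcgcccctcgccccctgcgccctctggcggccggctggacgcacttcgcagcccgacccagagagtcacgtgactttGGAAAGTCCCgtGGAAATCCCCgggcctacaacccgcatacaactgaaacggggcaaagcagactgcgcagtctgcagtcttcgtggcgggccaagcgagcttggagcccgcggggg
IRF1, chr5:132490724-132491023, minus strand: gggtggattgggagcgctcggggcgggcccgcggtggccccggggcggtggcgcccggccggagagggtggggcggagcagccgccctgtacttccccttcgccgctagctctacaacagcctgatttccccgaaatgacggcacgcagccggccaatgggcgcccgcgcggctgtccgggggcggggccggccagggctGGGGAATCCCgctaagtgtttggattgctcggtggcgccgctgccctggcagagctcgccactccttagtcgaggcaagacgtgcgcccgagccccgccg
TNFRSF9, chr1:7940790-7941089, minus strand: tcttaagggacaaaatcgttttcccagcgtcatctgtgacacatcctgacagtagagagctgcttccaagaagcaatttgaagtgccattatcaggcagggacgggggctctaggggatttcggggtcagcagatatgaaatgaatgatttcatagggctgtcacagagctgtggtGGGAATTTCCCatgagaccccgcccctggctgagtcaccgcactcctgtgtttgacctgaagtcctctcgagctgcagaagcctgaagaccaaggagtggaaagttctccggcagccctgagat
PDK4, chr7:95596467-95596766, minus strand: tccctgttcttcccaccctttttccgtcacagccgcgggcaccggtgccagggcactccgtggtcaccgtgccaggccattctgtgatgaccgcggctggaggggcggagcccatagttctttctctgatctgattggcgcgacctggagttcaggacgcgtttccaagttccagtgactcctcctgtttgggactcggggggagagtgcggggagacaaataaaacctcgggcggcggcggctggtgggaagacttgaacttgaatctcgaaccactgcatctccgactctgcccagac
Counted from the gene start, the match begins at position -79 in CCL20, -73 in IL6, -94 in SELE and -50 in IRF1. TNFAIP3 holds 2 separate matches, at positions -67 and -55. The run of capitals in TNFRSF9 holds 2 overlapping matches, at positions -74 and -73. Of the 24 genes with the largest rises, 20 had a promoter in the table and 10 of these (50%) held a kB match, against 1 of 17 (5.88%) among the 20 largest falls and 654 of 9533 (6.86%) over all measured genes with a promoter. Among the 9 promoters found for NF-kB and IkB genes, 5 (55.6%) held one. The AP-1 motif TGANTCA, searched on both strands, stood in 3 of 20 rises (15%), 4 of 17 falls (23.5%) and 4.58% of measured genes; it does not overlap the kB runs shown. Over all 27303 promoters of the table, 5.72% held the kB consensus and 7.76% TGANTCA. A match is a description of these letters and not evidence of binding.

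After 2 h of IL1B the 24 genes with the largest rises had a median log2 level of 10.74 in the knockdown cells, against 5.90 at 0 h, and they were led by chemokine, cytokine and adhesion genes. Of these 24, 14 stood at 0 h below the lower quartile of array levels (6.64), and no detection values were used. The 20 largest falls were smaller, with median levels of 7.22 at 2 h and 8.64 at 0 h. A probe set was called when limma's p-value, after Benjamini-Hochberg adjustment across the 14488 probe sets, was under 0.05. By this rule 3392 probe sets (23.4%) were called, 1386 higher at 2 h (9.57%) and 2006 lower (13.8%). The split moved with the centring: with array medians subtracted, 1641 were higher and 1516 lower. It also moved with a single array, since without knockdown 0 h replicate 1 the counts were 1172 higher and 1152 lower. Among larger changes the rises led, with 316 probe sets higher and 58 lower by over 2-fold, and 86 higher and 3 lower by over 4-fold. No fall passed 8-fold, whereas 32 rises did, 15 of them over 16-fold and 4 over 64-fold. Without regard to a test, 29.1% of all probe sets had groups that did not overlap, 11.8% with every array at 2 h above every array at 0 h and 17.3% with every array below. The median change of all probe sets was -0.048, and the median size of a called change was 0.428 on the log2 scale. Counts in the gene lists below are to be read beside the shares called of all probe sets, 9.57% higher and 13.8% lower.

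**Figure D1:**
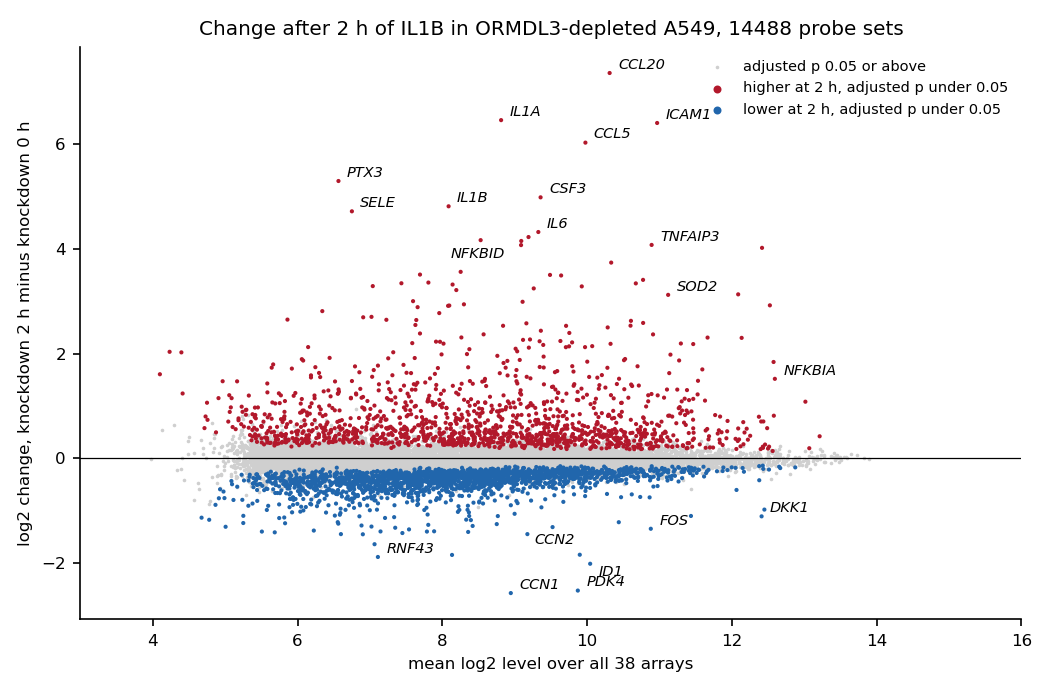
Each point is 1 of 14488 probe sets, with its mean log2 level over all 38 arrays on the horizontal axis and the log2 change between knockdown 2 h and knockdown 0 h on the vertical axis; red points were called higher, blue points called lower and grey points not called. The labelled rises reach 7.36 for CCL20, and the largest fall is -2.58 for CCN1.

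Chemokine genes rose in 12 of 14 measured cases, and 1 of them gave the largest change of the whole response. CCL20, the ligand of CCR6, had log2 levels of 12.49, 12.52, 12.38 and 12.40 on the 4 knockdown arrays at 2 h, against 5.32, 4.52 and 5.42 on the 3 at 0 h. The lowest array at 2 h stood far above the highest at 0 h, and the rise was 7.36 ± 0.16 (SE), or 165-fold (adjusted p = 1.73e-27). CCL5, which draws T cells and eosinophils, had 11.12, 10.97, 10.79 and 10.61 at 2 h, against 5.20, 4.49 and 4.82 at 0 h, a rise of 6.03 ± 0.16 (adjusted p = 2.23e-25), again without overlap. Of 6 measured CC chemokines and fractalkine, 5 rose, with a median change of 3.22 over the list. The others that rose were the membrane-bound chemokine CX3CL1 (by 3.51), the monocyte attractant CCL2 (by 2.92) and CCL22 (by 2.55), while CCL26, an eotaxin, had a change of -0.47 that did not pass the test.

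Of 8 measured CXC chemokines, 7 rose, and CXCL16 (change -0.02) did not pass the test. The neutrophil attractant CXCL8 had levels of 12.92, 12.91, 12.99 and 12.68 at 2 h, against 9.82, 9.66 and 9.76 at 0 h, a rise of 3.13 ± 0.11 (adjusted p = 1.19e-21). CXCL3 and CXCL2, close paralogs whose probes may share signal, rose by 3.49 and 3.34. CXCL5 rose by 1.84 and CXCL6 by 0.82; both are further ligands of the neutrophil receptor CXCR2. CXCL10, an interferon-inducible ligand of CXCR3, had 6.10, 5.99, 5.88 and 5.64 at 2 h, against 3.58, 3.70 and 4.06 at 0 h, and at both hours it lay below the lower quartile of array levels (6.64). Its rise was 2.12 ± 0.19 (adjusted p = 1.19e-10), without overlap. CXCL11 rose by 0.70, a call lost without knockdown 0 h replicate 2 (adjusted p = 0.13).

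The cytokine genes with the largest rises were IL1A, CSF3, IL1B and IL6. IL1A had 11.54, 11.33, 11.22 and 11.08 at 2 h, against 5.02, 4.85 and 4.62 at 0 h, a rise of 6.46 ± 0.19 or 88.2-fold (adjusted p = 5.98e-24). The transcript of IL1B, the cytokine that was added as protein, had 9.85, 9.68, 9.40 and 9.30 at 2 h, against 5.05, 4.53 and 4.65 at 0 h, a rise of 4.81 ± 0.16 (adjusted p = 4.04e-22). Neither gene's groups overlapped. CSF3, the granulocyte colony-stimulating factor, which lies on 17q near ORMDL3, had 10.94, 10.97, 10.63 and 10.46 at 2 h, against 5.99, 5.47 and 5.83 at 0 h and rose by 4.99 ± 0.18 (adjusted p = 1.01e-21). IL6, an acute-phase cytokine, had 10.46, 10.34, 10.18 and 10.42 at 2 h, against 6.48, 5.74 and 5.86 at 0 h and rose by 4.32 ± 0.13, or 20-fold (adjusted p = 1.56e-23). Replicate 1 was the highest 0 h array of IL6 and still lay below every array at 2 h.

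Over the 16 measured interleukins, colony-stimulating factors and TNF ligands, 12 rose, none fell and the median change was 1.56. The macrophage factor CSF1 and the cytokine IL32 rose by 2.37 and 2.37, the IL27 subunit EBI3 by 2.11, the IL23 subunit IL23A by 1.91 and LIF, a relative of IL6, by 1.20. IL15, TNFSF15 and IL36G rose by 0.64, 0.85 and 0.49, but without knockdown 0 h replicate 4 TNFSF15 was not called (adjusted p = 0.0867), nor was IL36G without knockdown 0 h replicate 2 (adjusted p = 0.0639). IL11 (0.05) and IL18 (-0.12) did not pass the test. IL12A (0.36) and TNFSF10 (-0.71) missed it too and passed it with the replicate number as a block (adjusted p = 0.0314 and 0.00115). Of 15 growth factor ligands 7 rose and 3 fell. INHBA, the activin A subunit, rose by 2.81, the EGF receptor ligands HBEGF and EREG by 1.68 and 1.22 and the angiogenic factor VEGFA by 1.33. GDF15, BMP4 and NRG4 fell by 0.98, 0.67 and 0.60. NRG4 was not called without knockdown 0 h replicate 1 (adjusted p = 0.202) or knockdown 2 h replicate 2 (adjusted p = 0.0527). FGF18, a fibroblast growth factor outside that list, rose by 3.32 ± 0.11.

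All 11 measured genes for NF-kB subunits and IkB proteins rose, with a median change of 2.12, against 9.57% of all probe sets called higher. NFKBIA, the inhibitor that NF-kB resynthesises, had 13.31, 13.36, 13.39 and 13.24 at 2 h, against 11.84, 11.87 and 11.72 at 0 h. It was bright before IL1B and rose by 1.52 ± 0.07, or 2.86-fold (adjusted p = 2.47e-19). NFKBID, a nuclear IkB protein, had 11.21, 11.19, 11.11 and 11.10 at 2 h, against 7.01, 7.01 and 6.98 at 0 h, a rise of 4.15 ± 0.08 (adjusted p = 1.14e-29). Its SD was 0.06 at 2 h (n = 4) and 0.02 at 0 h (n = 3). The subunit genes NFKB1, REL, RELB and NFKB2 rose by 2.50, 2.44, 2.21 and 1.87, and RELA, the p65 subunit, by 0.68. The inhibitors NFKBIE and NFKBIB rose by 2.22 and 0.73, and the nuclear regulators NFKBIZ and BCL3 by 2.12 and 1.31.

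**Figure D2:**
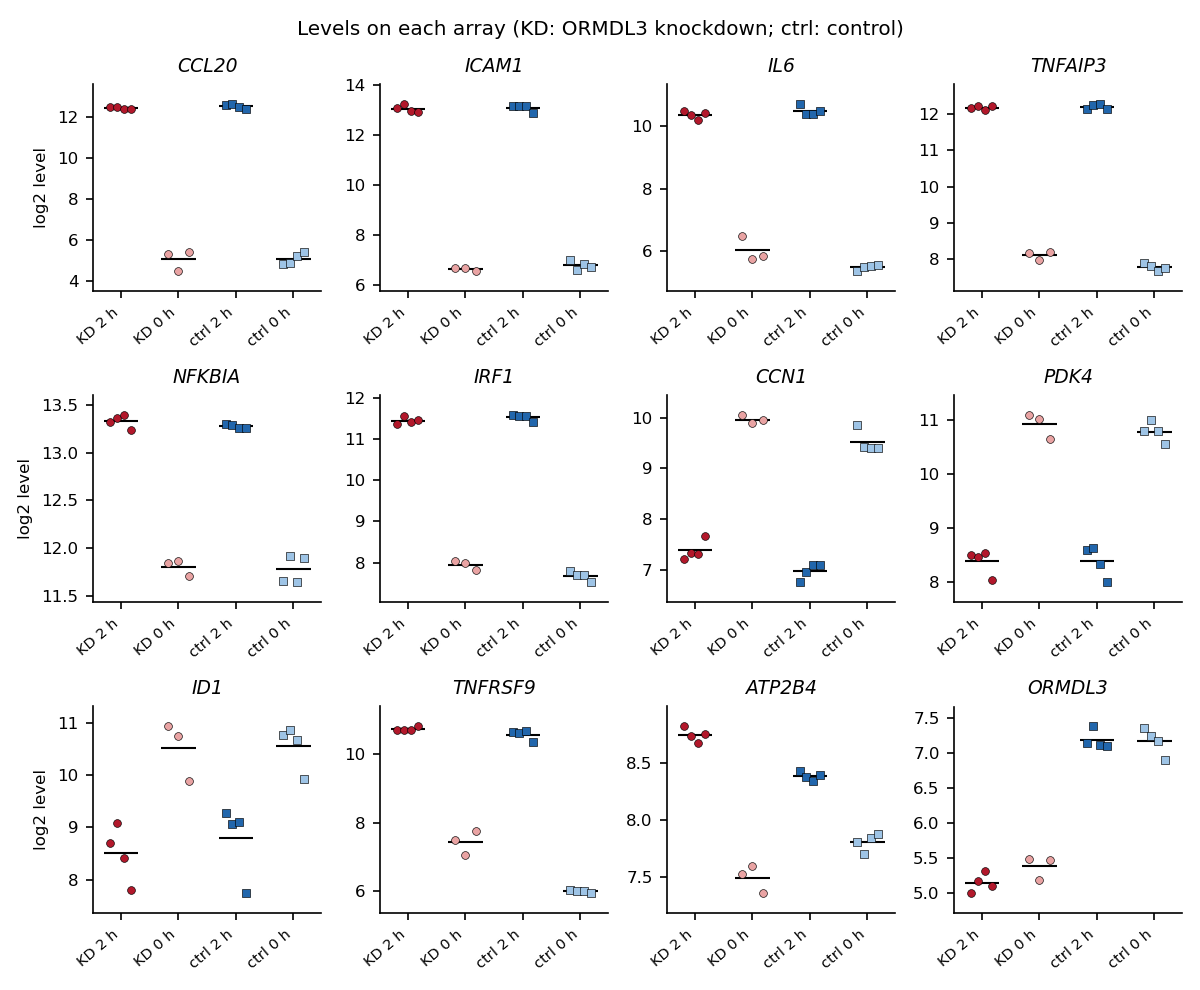
Log2 level on each array (points) and group mean (lines) for 12 genes, in knockdown (KD, circles) and control (ctrl, squares) cells at 2 h and 0 h; the vertical axis differs between panels and does not begin at 0. The knockdown arrays at 2 h and 0 h are apart in every panel but that of ORMDL3, and TNFRSF9 on the knockdown arrays stands 1.44 above control at 0 h and 0.16 above it at 2 h.

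Of the 18 measured genes listed here as feedback regulators of NF-kB signalling, 16 passed the test upward and none downward, with a median of 1.58. TNFAIP3, the ubiquitin-editing enzyme A20, had 12.18, 12.22, 12.12 and 12.22 at 2 h, against 8.15, 7.97 and 8.20 at 0 h, a rise of 4.08 ± 0.08, or 16.9-fold (adjusted p = 1.47e-29). Its partner TNIP1 rose by 1.76, the adaptor TRAF1 by 3.29, the IAP protein BIRC2 by 1.64 and the deubiquitinase CYLD by 1.51. IRAK2 and the decoy kinase IRAK3 rose by 2.58 and 1.73, and SOCS3, an inhibitor of JAK and STAT signalling, by 2.24. OTULIN (0.15) and SOCS2 (0.10) did not pass the test. Of 15 genes of the IL1 receptor and its proximal signalling, 3 rose, 2 fell and 10 did not pass the test, beside 23.4% of all probe sets called. MAP3K8, the kinase TPL2, rose by 1.89, TAB2 by 0.63 and TAB3 by 0.38, whereas IL1R1 fell by 0.46 and TAB1 by 0.18. The call of TAB1 was lost without knockdown 0 h replicate 1 or 2 or knockdown 2 h replicate 1, 3 or 4 (adjusted p up to 0.168). The changes of IL1RAP, MYD88, IRAK1 and TRAF6 lay between -0.06 and 0.18 and did not pass the test.

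Regulators of mRNA decay gave 7 rises and no fall among 13. The rises were led by the endonuclease ZC3H12A (by 2.30), its relative ZC3H12C (by 1.86) and ZFP36 (by 1.62), which binds AU-rich elements. ELAVL1, HNRNPD and KHSRP, further proteins that bind AU-rich elements, had changes of -0.04, -0.16 and 0.10 and did not pass the test. Of the 20 immediate-early transcription factors, 10 rose and 2 fell. FOS, the AP-1 subunit that peaks within the hour in many cells, had 10.28, 10.63, 10.62 and 10.50 at 2 h, against 12.01, 11.97 and 11.59 at 0 h, a fall of 1.35 ± 0.17 (adjusted p = 2.05e-07) without overlap. JUN had 10.23, 10.20, 10.38 and 10.23 at 2 h, against 9.61, 9.38 and 9.27 at 0 h and rose by 0.84 ± 0.09 (adjusted p = 7.28e-09), so these AP-1 partners moved in opposite directions. CEBPD rose by 2.19, MAFF by 1.91, EGR3 by 1.71, FOSL1 by 1.37, FOSL2 by 1.08 and ATF3 by 0.78, while EGR1 (0.16, adjusted p = 0.23) and JUNB (-0.05) did not pass the test. MYC fell by 0.24, a call lost without knockdown 0 h replicate 1 (adjusted p = 0.069).

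Phosphatases and Sprouty proteins that restrain the MAP kinases split, with 7 of 14 up and 3 down. DUSP10 and DUSP16, which act on JNK and p38, rose by 2.16 and 1.73, and DUSP8 and DUSP6 by 1.52 and 1.31. SPRY4 rose by 1.41, whereas its relatives SPRY2 and SPRY1 fell by 1.26 and 0.48. DUSP1, the founding member of the family, had a change of 0.23 (adjusted p = 0.0735) that was called with the replicate number as a block (adjusted p = 0.00521) and without knockdown 0 h replicate 1 (adjusted p = 0.0265). Among 10 Krüppel-like factors 4 rose and 2 fell, beside 9.57% of all probe sets called higher and 13.8% lower. The rises were KLF6 by 1.03, KLF4 by 0.85, KLF5 by 0.42 and KLF7 by 0.43. KLF2, known for its anti-inflammatory role in endothelium, fell by 0.49, and the fall of KLF11 by 0.23 was lost without any 1 of the 0 h arrays or of replicates 2, 3 and 4 at 2 h (adjusted p up to 0.19).

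Adhesion molecules and surface receptors rose in 11 of 13 cases, with a median change of 1.89. ICAM1, the ligand of leukocyte integrins, had 13.11, 13.23, 12.96 and 12.93 at 2 h, against 6.69, 6.69 and 6.58 at 0 h. The rise of 6.41 ± 0.12, or 84.9-fold (adjusted p = 1.14e-29), was the largest of a named gene outside the chemokine and cytokine lists. SELE, E-selectin, best known from activated endothelium, had 9.29, 9.48, 9.18 and 8.97 at 2 h, against 4.34, 4.51 and 4.69 at 0 h and rose by 4.72 ± 0.16 (adjusted p = 2e-22). The 0 h levels of SELE lay below the lower quartile of array levels. OLR1, a scavenger receptor, rose by 4.07, CD83 by 2.69, ICAM4 by 2.65, the integrin subunit ITGB8 by 2.04, VCAM1 by 1.79 and CD274, the checkpoint ligand PD-L1, by 1.89. CD58 (0.18) and ITGA2 (-0.14) did not pass the test.

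In the TNF receptor family 7 of 12 rose and 1 fell (2 with the replicate block). TNFRSF9 (4-1BB) rose by 3.28, CD40 by 1.78 and the TRAIL receptor TNFRSF10B by 0.81, and TNFRSF10D, a TRAIL decoy receptor, fell by 0.33. Of 15 apoptosis regulators 6 rose and 2 fell, beside 9.57% of all probe sets called higher and 13.8% lower. The survival genes BCL2A1 and CFLAR rose by 3.36 and 1.25, and the BH3-only genes PMAIP1, BBC3, BID and BCL2L11 by 1.54, 1.26, 0.79 and 0.48. BMF and CASP9 fell by 0.56 and 0.39, and CASP9 was not called without knockdown 0 h replicate 1 or 2 or knockdown 2 h replicate 1 (adjusted p up to 0.185). BCL2L1 (-0.01) and XIAP (0.15) were among the 7 that did not pass the test. MCL1 (0.29) was another, and it was called with the replicate block (adjusted p = 0.0278) and without knockdown 0 h replicate 1 (adjusted p = 0.0411). Outside the lists, STX11, a syntaxin of immune secretion, had 11.12, 10.96, 11.14 and 10.91 at 2 h, against 6.74, 6.65 and 7.04 at 0 h and rose by 4.23 ± 0.13 (adjusted p = 9.01e-24), and the transcription factor STAT5A rose by 3.24.

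Secreted defence proteins rose in 7 of 12 cases. The pentraxin PTX3 had 9.01, 8.98, 8.93 and 9.37 at 2 h, against 3.78, 3.89 and 3.65 at 0 h, a rise of 5.30 ± 0.16 (adjusted p = 1.56e-23), without overlap. TNFAIP6, which modifies hyaluronan, rose by 4.17, the antiprotease SERPINA3 by 3.74, the elastase inhibitor PI3 by 2.99, the siderophore binder LCN2 by 1.76 and complement C3 by 0.82. S100A9 (0.07), CP (-0.06) and the antiprotease SLPI (0.56) did not pass the test, and SLPI passed it with the replicate block (adjusted p = 0.00265). Of 10 proteases and inhibitors 5 rose: the plasminogen activators PLAT (by 2.53) and PLAU (by 1.98) and the metalloproteases MMP10, MMP1 and MMP7 (by 1.58, 1.29 and 0.56). TIMP1 and TIMP2, their inhibitors, had changes of -0.03 and -0.01.

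Within the prostaglandin list, PTGS2, the inducible cyclooxygenase, had 13.25, 13.44, 13.40 and 13.30 at 2 h, against 12.40, 12.34 and 12.07 at 0 h. It was already bright before IL1B and rose by 1.08 ± 0.09 (adjusted p = 3.64e-12), without overlap. The prostaglandin E receptor PTGER4 and the synthase PTGES rose by 1.39 and 0.48, and the receptor PTGER2 fell by 0.50, a call lost in 9 of the 15 fits that left out 1 array (adjusted p up to 0.17). The other 7 of 11 did not pass the test, and with the replicate block 2 fell. Of 18 oxidant defence genes 3 rose and 1 fell, a share near the 23.4% of all probe sets called. SOD2, the mitochondrial superoxide dismutase, had 11.56, 11.58, 11.79 and 11.66 at 2 h, against 8.63, 8.53 and 8.41 at 0 h and rose by 3.12 ± 0.06, or 8.7-fold (adjusted p = 7.28e-29). TXNRD1 and SRXN1 rose by 0.49 and 0.20, and SRXN1 was not called without knockdown 0 h replicate 2 (adjusted p = 0.0584). CAT, catalase, fell by 0.22, a call lost in the fit to the arrays compared alone (adjusted p = 0.0834), and HMOX1 (-0.09), NQO1 (-0.08) and SOD1 (-0.16) did not pass the test.

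Of 28 interferon genes 9 rose and none fell, with a median of 0.25. IRF1, a transcription factor that NF-kB and interferons both induce, had 11.36, 11.56, 11.41 and 11.46 at 2 h, against 8.03, 7.99 and 7.82 at 0 h and rose by 3.50 ± 0.19, or 11.3-fold (adjusted p = 7.66e-17). The guanylate-binding proteins GBP2 and GBP3 rose by 1.63 and 1.16, and the RNA sensors IFIH1 and RIGI by 1.23 and 0.47, although RIGI was not called without knockdown 0 h replicate 2 (adjusted p = 0.0521). The 19 members that did not pass the test at 2 h included ISG15 (0.08), MX1 (0.30), IFIT1 (-0.38), OAS1 (0.10) and IFI44L (0.12). In antigen presentation the proteasome subunit PSMB10 rose by 1.19 and the peptidase ERAP1 by 0.22, and the other 4 of 6 genes did not pass the test. ERAP1 was not called without knockdown 0 h replicate 1 or 4 or knockdown 2 h replicate 1, 3 or 4 (adjusted p up to 0.2). B2M (0.29), the light chain of MHC class I, passed with the replicate number as a block (adjusted p = 0.024).

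The 20 largest falls held CCN1, CCN2 and ANKRD1, listed here as targets of YAP, the Hippo pathway coactivator, and ID1, ID3 and SMAD7, listed under BMP and TGF-beta signalling. CCN1, a matrix protein, had 7.21, 7.34, 7.32 and 7.66 at 2 h, against 10.05, 9.89 and 9.95 at 0 h, the largest fall of all probe sets, 2.58 ± 0.15 on the log2 scale or a ratio of 0.167 (adjusted p = 1.25e-15). CCN2, its relative, had 9.43, 9.01, 9.29 and 9.35 at 2 h, against 11.24, 11.14 and 10.97 at 0 h and fell by 1.85 ± 0.12 (adjusted p = 3.67e-14). Neither gene's groups overlapped, and ANKRD1, also widely read as a YAP target, fell by 1.36. Of 18 YAP and TEAD targets 5 fell, GADD45B and AJUBA by 0.76 and 0.54, and 4 rose, among them F3, tissue factor (by 1.31), FJX1 (by 1.07) and AMOTL1 (by 0.57). The list's median was -0.01, against -0.05 over all probe sets.

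ID1, which blocks basic helix-loop-helix factors and is a BMP target, had 8.70, 9.08, 8.42 and 7.81 at 2 h, against 10.93, 10.74 and 9.89 at 0 h, a fall of 2.02 ± 0.36 (adjusted p = 5.39e-05). Replicate 4 was the lowest array of both groups, and the groups did not overlap. ID3 had 8.57, 8.70, 8.66 and 8.39 at 2 h, against 10.17, 9.94 and 9.59 at 0 h and fell by 1.32 ± 0.14, ID2 fell by 0.79 and the inhibitory SMAD7 by 1.40, which with ID1 made 4 falls among 13 BMP and TGF-beta genes. BAMBI rose by 0.42, and SMAD6 (-0.13) and SKIL (0.03) did not pass the test. Of 13 Wnt targets and antagonists 4 fell and 1 rose. The counts of the BMP and the Wnt list stand beside 9.57% of all probe sets called higher and 13.8% lower. RNF43, a ligase that removes Frizzled receptors, had 6.28, 6.25, 6.49 and 6.39 at 2 h, against 8.15, 8.35 and 8.23 at 0 h and fell by 1.89 ± 0.14 (adjusted p = 6.09e-13). The secreted antagonist DKK1 fell by 1.11, AXIN2 by 0.46 and LGR4 by 0.28, and NKD2 rose by 0.37, a call lost without knockdown 0 h replicate 1 (adjusted p = 0.0639).

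PDK4, the kinase that shuts pyruvate dehydrogenase, had 8.51, 8.46, 8.53 and 8.05 at 2 h, against 11.09, 11.02 and 10.65 at 0 h. It fell by 2.53 ± 0.17, a ratio of 0.173 (adjusted p = 2.76e-14), without overlap. Around it, the glucose transporter SLC2A3 fell by 1.19, the glycolytic regulator PFKFB3 by 0.75 and SLC2A12 by 0.56, while SLC2A6 and PFKFB4 rose by 1.13 and 0.90. In this list of 21 genes for glucose uptake, glycolysis and PDK4, 2 rose and 5 fell, beside 9.57% of all probe sets called higher and 13.8% lower. The other 14 did not pass the test, GAPDH (-0.01), LDHA (-0.05) and PKM (-0.11) among them. Other large falls were those of ALX1, a homeobox gene with 7.45, 7.45, 7.48 and 7.49 at 2 h, against 9.46, 9.24 and 9.26 at 0 h (fall 1.85 ± 0.13, adjusted p = 1.97e-13), and of the transcription factor GATA3 (by 1.45). TSC22D3, a glucocorticoid-induced gene, fell by 1.43, the receptor IL6R by 1.41, the lipid droplet protein HILPDA by 1.45 and the glycogen regulator PPP1R3C by 1.46. SLITRK6, JADE1, PRICKLE1, TIGD2 and FIGN, the other genes of the 20 largest falls, fell by between 1.33 and 1.65.

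In the sphingolipid pathway that ORMDL3 regulates, none of the 13 measured genes of de novo synthesis passed the test in either direction, beside 23.4% of all probe sets called. The list's median was -0.14, against -0.05 over all probe sets. The serine palmitoyltransferase subunits SPTLC1 and SPTLC2 had changes of -0.15 ± 0.09 (adjusted p = 0.267) and -0.17 ± 0.09 (adjusted p = 0.149), and ORMDL1 and ORMDL2 of -0.06 and -0.01. Without knockdown 0 h replicate 4, 2 of the 13 were called lower, SPTLC1 among them (adjusted p = 0.0372), and with array weights 4 were. With the replicate number as a block, fixed or random, 1 was, and 1 was with limma's variance trend and robust option. Of 21 genes that handle sphingosine 1-phosphate and complex sphingolipids, 9 rose and 2 fell, beside 9.57% of all probe sets called higher and 13.8% lower. SPHK1, the kinase that makes sphingosine 1-phosphate, had 8.19, 8.30, 8.36 and 8.73 at 2 h, against 7.10, 6.72 and 7.16 at 0 h and rose by 1.40 ± 0.14, or 2.64-fold (adjusted p = 4.99e-10). SGPP2, a phosphatase that undoes its product, rose by 1.29, the phosphatase PLPP3 by 1.13, the glucosylceramide synthase UGCG by 1.08 and the receptor S1PR2 by 0.50. SGPP1 (-0.11, adjusted p = 0.442) and the lyase SGPL1 (-0.04) did not pass the test, and the ceramidases ACER2 and ASAH1 fell by 0.64 and 0.24. ASAH1 was not called without knockdown 0 h replicate 1 or 2 or knockdown 2 h replicate 2 or 4 (adjusted p up to 0.206). In a fit to the arrays compared alone, 5 of the 21 rose.

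**Figure D3:**
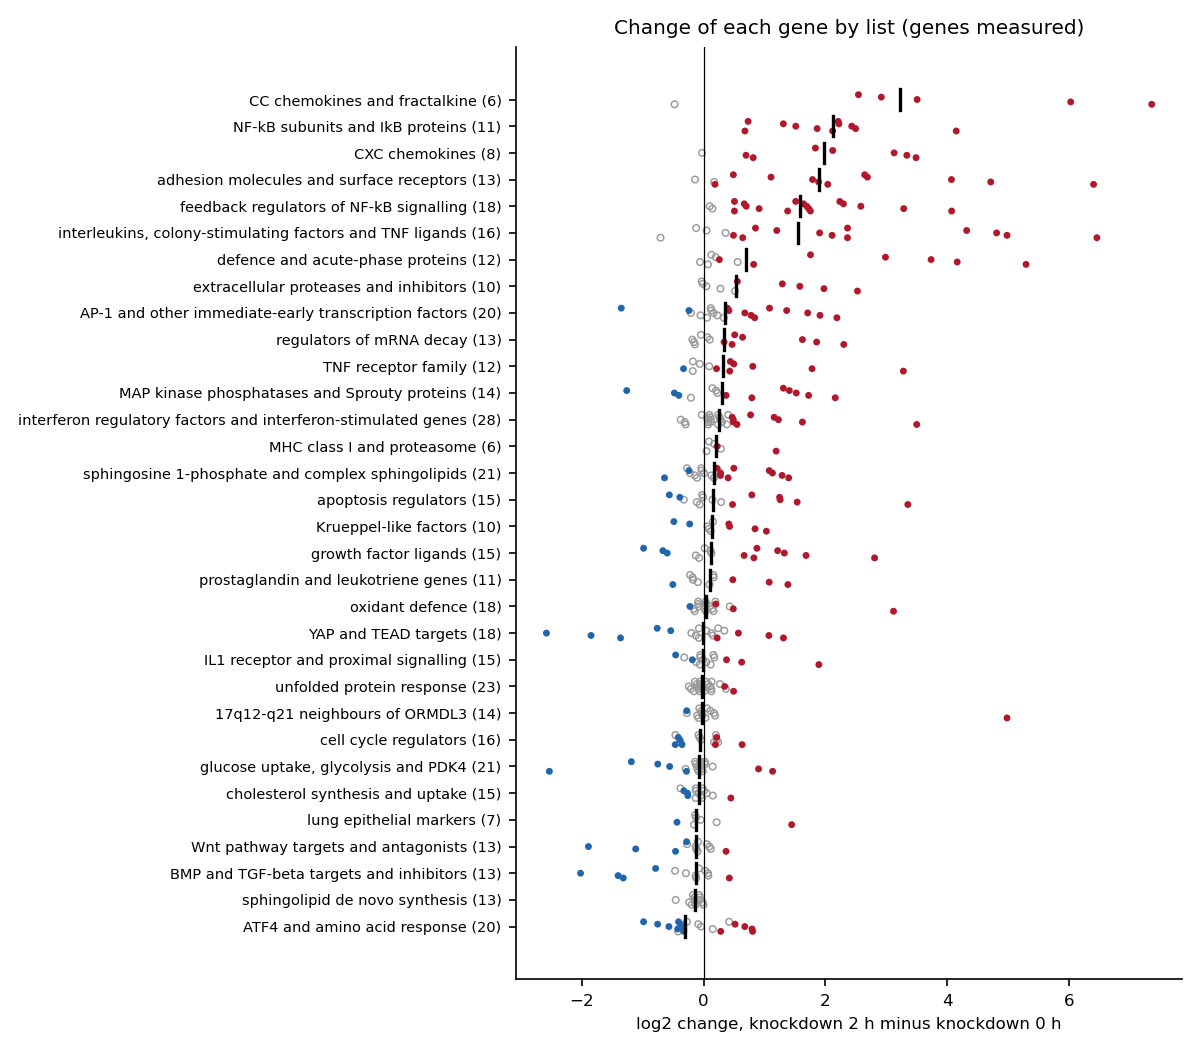
Log2 change between knockdown 2 h and knockdown 0 h (horizontal axis) for each measured gene (points) of the lists with at least 6 measured genes, in order of their medians (black lines), with the number measured in brackets; red points were called higher, blue points lower and open grey points not called. Chemokine, NF-kB and adhesion genes lie mostly right of 0, and the genes of sphingolipid de novo synthesis lie within 0.46 of it with no call.

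Genes of the unfolded protein response, which reports on the endoplasmic reticulum, gave 2 rises among 23. These were the sensor ERN1 (by 0.49) and PPP1R15A (by 0.35), a regulatory subunit of the phosphatase that acts on eIF2alpha. PPP1R15A was not called without knockdown 0 h replicate 4 or knockdown 2 h replicate 2 (adjusted p up to 0.0967), and without knockdown 2 h replicate 4 the list had 4 rises. HSPA5, the chaperone BiP, had 12.58, 12.58, 12.60 and 12.48 at 2 h, against 12.74, 12.68 and 12.54 at 0 h, groups that overlapped, with a change of -0.10 ± 0.07 (adjusted p = 0.337). The 2 called of 23 stand beside 23.4% of all probe sets. The ATF4 and amino acid list of 20 genes went both ways, beside 9.57% of all probe sets called higher and 13.8% lower. It had 5 rises, ATF5 (by 0.80) and CHAC1 (by 0.81) among them, and 8 falls, among them GDF15 (by 0.98), SESN2 (by 0.75) and SLC38A2 (by 0.42). In the fit to the arrays compared alone and in that without knockdown 2 h replicate 2, 5 of its genes fell. Of 15 cholesterol genes 1 rose, INSIG1 (by 0.45), which retains the SREBP activator in the endoplasmic reticulum, and 3 enzymes of synthesis fell, IDI1, MVK and NSDHL (by 0.26, 0.26 and 0.32). The 4 called of 15 are near the 23.4% of all probe sets. IDI1 was not called without knockdown 0 h replicate 1 or 2 (adjusted p up to 0.071) and MVK in 8 of the 15 fits that left out 1 array (adjusted p up to 0.185), so that 1 fall was left without knockdown 0 h replicate 2. CYP51A1 (-0.38) missed the threshold and passed it with the replicate block (adjusted p = 0.04).

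Among 16 cell cycle regulators 3 rose and 4 fell, beside 9.57% of all probe sets called higher and 13.8% lower. PLK2 rose by 0.63, and the cyclins CCND1 and CCND3 by 0.22 and 0.20. CCNE1, CDKN1B, CCNA2 and CCNB1 fell by 0.35, 0.39, 0.42 and 0.46. Without any 1 of knockdown 0 h replicate 1 and knockdown 2 h replicates 2 and 3, PLK2 was left as the 1 rise. CCND1 was lost also without knockdown 0 h replicate 2 or knockdown 2 h replicate 4 (adjusted p up to 0.324), CCND3 without knockdown 0 h replicate 4 (adjusted p up to 0.126) and CCNB1 without knockdown 0 h replicate 4 or knockdown 2 h replicate 2 (adjusted p up to 0.18). The mitotic kinase gene CDK1 (-0.46) was called with the replicate block (adjusted p = 0.0163) and without knockdown 0 h replicate 4 (adjusted p = 0.0422). Of 14 neighbours of ORMDL3 on 17q12-q21, CSF3 rose and THRA, a thyroid hormone receptor, fell by 0.28. The other 12 did not pass the test, beside 23.4% of all probe sets called. THRA was not called without knockdown 0 h replicate 1 or 2 or knockdown 2 h replicate 1 (adjusted p up to 0.113).

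The 2 h response was compared with that of the control arm by the difference of the responses, knockdown minus control. Control cells had 2904 called probe sets at 2 h (20%), 1488 higher (10.3%) and 1416 lower (9.77%). Called in both arms with 1 sign were 1820, which is 53.7% of the knockdown calls and 62.7% of the control calls, and no probe set was called with opposite signs. Of the 374 probe sets called and changed by over 2-fold in knockdown cells, 374 had the same sign in control cells and 370 were called there. The difference itself was called for 4 probe sets of 14488 (0.0276%), while 1836 had an unadjusted p under 0.05. At the median standard error of 0.144, the unadjusted 95% interval of a difference reached 0.293 to either side, so a smaller difference could not be told from 0 there. A call after adjustment over all probe sets asked for a larger difference than that, and those of TRAF1 and IL6, given below, were not called. With the replicate number as a block 7 were called. Without control 2 h replicate 4 there were 10, and without all arrays numbered 4, an alternative chosen after seeing the data, 27. With arrays weighted by their fit to the model there were 829.

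TNFRSF9 rose less in knockdown than in control cells. Knockdown cells had 10.71, 10.69, 10.70 and 10.80 at 2 h, against 7.51, 7.06 and 7.76 at 0 h. Control cells had 10.63, 10.62, 10.66 and 10.34 at 2 h, against 6.05, 6.00, 6.00 and 5.96 at 0 h, so the arms lay farther apart before IL1B than after it. The rise was 3.28 ± 0.12 in knockdown and 4.56 ± 0.11 in control cells, a difference of -1.27 ± 0.16 (95% interval -1.60 to -0.95, adjusted p = 4.84e-05). The arms were apart at 0 h, where knockdown exceeded control by 1.44 ± 0.12 (adjusted p = 4.08e-10), and at 2 h they differed by 0.16 ± 0.11 (adjusted p = 0.369). ATP2B4, a calcium pump of the plasma membrane, went the other way. Knockdown arrays held 8.82, 8.74, 8.67 and 8.75 at 2 h, against 7.53, 7.60 and 7.36 at 0 h. On control arrays the 2 h levels were 8.43, 8.38, 8.34 and 8.40, against 0 h levels of 7.81, 7.71, 7.84 and 7.88. Its rise was 1.25 in knockdown and 0.58 in control cells, a difference of 0.67 ± 0.13 (95% interval 0.41 to 0.93, adjusted p = 0.0425). This call was lost in 12 of the 15 fits that left out 1 array (adjusted p up to 0.151) and held without control 2 h replicate 4, control 0 h replicate 2 or knockdown 0 h replicate 2.

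The other 2 calls were probe sets to which the annotation gives no single gene symbol. Probe set 7943413 rose by 3.41 in knockdown and 4.37 in control cells (difference -0.96 ± 0.15, adjusted p = 0.00186), and its 0 h level was 1.06 higher in knockdown cells. Probe set 8116418 rose by 1.30 in knockdown and 2.01 in control cells (difference -0.71 ± 0.11, adjusted p = 0.000782), and its 0 h level was 1.01 higher in knockdown cells. The call of 8116418 was lost when the fit used only the arrays compared (adjusted p = 0.2). STK17A (-0.41, adjusted p = 0.0582) and the dopamine receptor gene DRD1 (-0.73, adjusted p = 0.113) missed the threshold and passed it with the replicate block (adjusted p = 0.0418 and 0.0449).

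None of the other leading genes of the response passed the adjusted test of the difference in the main fit. The difference was -0.07 for CCL20 (95% interval -0.53 to 0.38), 0.11 for ICAM1 (-0.21 to 0.43), 0.02 for NFKBIA (-0.16 to 0.20), -0.17 for CXCL8 (-0.48 to 0.14) and -0.03 for CCN1 (-0.45 to 0.39). IL6 rose by 4.32 in knockdown and 4.99 in control cells, a difference of -0.66 with an interval of -1.03 to -0.30 that excludes 0 but an adjusted p of 0.201. TRAF1 leaned the other way, with 3.29 in knockdown and 2.55 in control cells (difference 0.74, 0.38 to 1.10, adjusted p = 0.19). With array weights the differences of TRAF1 (0.82, adjusted p = 0.00718), CSF3 (0.82) and FGF18 (0.52) were called. So were those of OLR1 (-0.75), STX11 (-0.53) and ANKRD1 (-0.66), with adjusted p up to 0.0467. Over the 13 genes of sphingolipid de novo synthesis, 0 differences were called in the main fit and their median was -0.09, against -0.03 over all probe sets. With array weights the difference of SPTLC1 was called (-0.36, adjusted p = 0.0445).

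**Figure D4:**
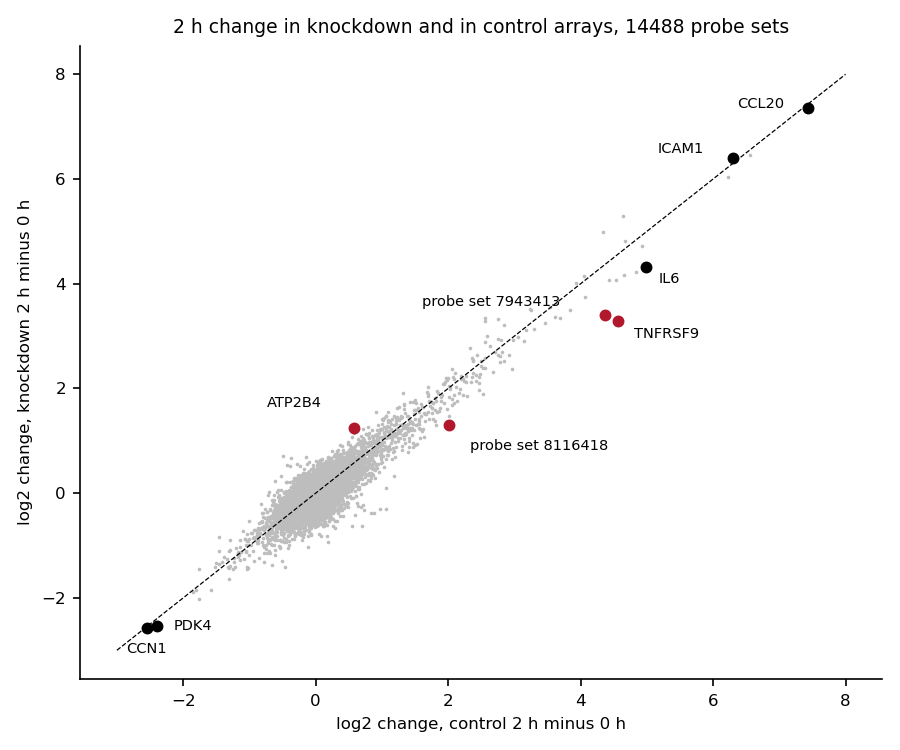
Each point is 1 of 14488 probe sets, with its 2 h change in control cells on the horizontal axis and in knockdown cells on the vertical axis, both on the log2 scale; the dashed line marks equal change. Red points are the 4 probe sets called for the difference, TNFRSF9 and probe sets 7943413 and 8116418 below the line and ATP2B4 above it, and black points are labelled genes that were not.

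The same genes were followed in knockdown cells at later hours, for which the 2 h arrays are shared between comparisons. By limma's adjusted p, 7.82% of all probe sets were called higher and 6.81% called lower at 4 h than at 2 h. Among the 11 NF-kB and IkB genes 6 were called lower at 4 h than at 2 h and none higher. Among the 20 immediate-early factors 11 were called lower and 2 higher. Of the 28 interferon genes 20 were called higher at 4 h than at 2 h and 1 was called lower. MX1, an antiviral GTPase, averaged 5.25 ± 0.11 at 0 h, 5.55 ± 0.13 at 2 h, 7.34 ± 0.12 at 4 h, 7.92 ± 0.36 at 8 h and 7.78 ± 0.48 at 10 h (SD, n = 3 at 0 h and 4 at each other hour). IRF1, the gene that was called lower in that list, averaged 7.94 ± 0.11, 11.45 ± 0.08, 9.95 ± 0.25, 8.51 ± 0.46 and 8.72 ± 0.28 at the same hours. MX1 was thus near its untreated level at 2 h and high at 4 h, whereas IRF1 was highest at 2 h.

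NFKBIA averaged 11.81 ± 0.08 at 0 h, 13.32 ± 0.07 at 2 h, 12.73 ± 0.05 at 4 h, 12.43 ± 0.06 at 8 h and 12.48 ± 0.10 at 10 h, so that 2 h was its highest hour of these 5. CCL20 averaged 5.08 ± 0.49, 12.45 ± 0.07, 12.24 ± 0.11, 9.96 ± 0.25 and 10.30 ± 0.22 at these hours. SOD2 averaged 8.53 ± 0.11, 11.65 ± 0.10, 11.79 ± 0.03, 11.69 ± 0.06 and 11.70 ± 0.06, close to one another from 2 h on. LCN2 averaged 7.03 ± 0.62, 8.79 ± 0.52, 10.11 ± 0.15, 10.77 ± 0.24 and 10.74 ± 0.25, with its highest mean at 8 h. Of the falls, CCN1 averaged 9.96 ± 0.08 at 0 h, 7.38 ± 0.19 at 2 h, 8.86 ± 0.16 at 4 h, 9.76 ± 0.19 at 8 h and 9.61 ± 0.21 at 10 h, and PDK4 10.92 ± 0.24, 8.39 ± 0.23, 9.84 ± 0.19, 10.25 ± 0.28 and 10.35 ± 0.26. Both were lowest at 2 h of these hours, while RNF43 was lowest at 4 h, with 5.98 ± 0.30 against 8.24 ± 0.10 at 0 h. These genes were named for their 2 h change, so a lower or higher mean at a later hour is given as a description, without its test.

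**Figure D5:**
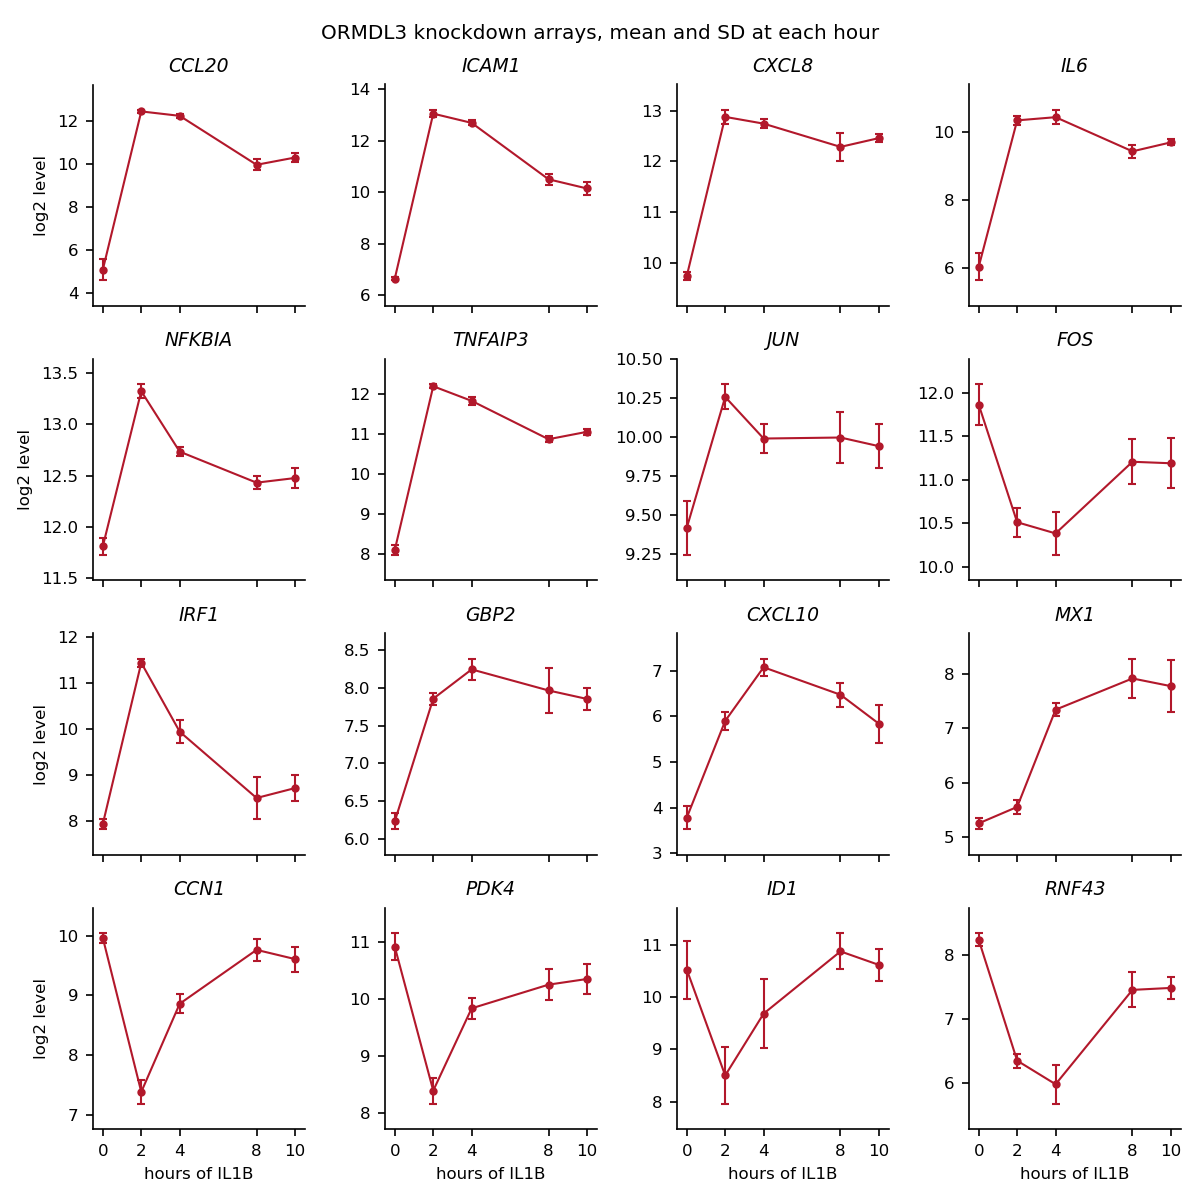
Mean log2 level (points) and SD (bars) of 16 genes on the knockdown arrays against hours of IL1B, with 3 arrays at 0 h and 4 at each later hour; the vertical axis differs between panels and does not begin at 0. NF-kB targets such as NFKBIA and IRF1 are highest at 2 h, MX1 rises after 2 h, and CCN1 and PDK4 are lowest at 2 h.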

How the data were processed

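The authors deposited log2 expression levels for 14488 probe sets on 38 Affymetrix arrays, per the labels. Of tools, RMA and Affymetrix Power Tools stand in the submitters' processing notes, as do limma 3.22.7 and the build hg19, with no role or order. How the probe sets were chosen, and detection values, are not given in the sources used here. Groups and replicate numbers were read from the labels, and no further normalization was applied. The platform annotation gave a single symbol to 12132 probe sets, several to 628 and none to 1728, and 12121 of the 12132 matched a current gene record.

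The model, fitted by limma 3.58.1 (R 4.3.3), had 1 mean for each of the 10 groups over all 38 arrays, empirical Bayes moderation and Benjamini-Hochberg adjustment over all probe sets. A call is an adjusted p under 0.05, and every adjusted p is limma's. Changes are differences of mean log2 levels, given ± the standard error of the model. Tables and promoter matches were made with Python 3.11.15, numpy 2.4.6, pandas 2.3.3 and scipy 1.17.1. The test was checked on simulated data with known changes. The number of arrays limits the precision.

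Genes named were ORMDL3 and its paralogs, the 24 largest rises and 20 largest falls among called genes whose arrays did not overlap, the 10 smallest p-values of the difference, the 4 largest changes of each of 34 gene lists and a fixed set. Other list members named beside them were chosen after their values were seen, and some genes within the rule are not printed. A list used 1 probe set per gene, the brightest with a single symbol. The members, lists and tests were chosen with earlier results of these data known. Only the array medians, the fit, array weights, dim probe sets, the replicate number and single arrays were varied, with quantile normalization.

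The replicate numbers were checked for pairing by the correlation across probe sets of same-numbered arrays' deviations from their group means. Between knockdown 2 h and 0 h these were 0.18, 0.234 and 0.365 for replicates 1, 2 and 4. Between control 2 h and 0 h they were 0.228, 0.244, 0.225 and 0.487 for replicates 1 to 4. Arrays with different numbers gave -0.245 to 0.067 in knockdown and -0.278 to 0.163 in control. The numbers were therefore taken to pair the arrays, and replicate number was fitted as a block for comparison. Values and list counts are from the fit without this block unless the block is named. With it some list counts moved: 10 ATF4 and amino acid genes fell in place of 8, and 5 fell in place of 4 in the Wnt list and in the BMP and TGF-beta list. Of the cell cycle regulators 4 rose and 6 fell, in place of 3 and 4. Of the apoptosis regulators 7 rose and 3 fell, in place of 6 and 2. Rises numbered 11 in place of 10 among immediate-early factors and 5 in place of 4 among YAP and TEAD targets. Among oxidant defence genes they numbered 4 in place of 3.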

Additional observations from a re-analysis of the deposited data

Results flagged for a closer look

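The response to 2 h of IL1B differed between the arms, by the test of the difference itself, for 4 probe sets. TNFRSF9 rose by 1.27 less in knockdown than in control cells (difference -1.27 on the log2 scale), and ATP2B4 rose by 0.67 more in knockdown cells. The unnamed probe sets 7943413 and 8116418 had differences of -0.96 and -0.71. TNFRSF9 and both unnamed probe sets stood higher in knockdown than in control cells already at 0 h. The call of ATP2B4 was lost in 12 of the 15 fits that left out 1 array. That of 8116418 was lost in the fit to the arrays compared alone (adjusted p = 0.2).

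In 8 of the 252 printed genes and probe sets, 1 of the 4 knockdown arrays at 2 h lay apart from the other arrays of its group by Dixon's criterion, where chance alone marks about 1 in 20 groups. Replicate 1 was the low array for NFKBIE (9.14, with the others at 9.31 to 9.35), for FOSL2 (11.69, with the others at 11.78 to 11.79) and for NSDHL (10.56, with the others at 10.81 to 10.85). Replicate 4 was the low array for NFKBIZ (10.62, with the others at 10.78 to 10.79), TIMP1 (12.14, with the others at 12.43 to 12.44) and PDK4 (8.05, with the others at 8.46 to 8.53). It was also the low array for TNFSF10 (6.05, with the others at 6.87 to 7.03). Replicate 3 was the high array for SGPP1 (8.06, with the others at 7.81 to 7.85).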

How the results depend on the processing

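Against 3392 probe sets called for the 2 h change in knockdown cells, 5253 were called with array weights, 1963 of the 7244 left when dim probe sets were left out, 2531 in the fit to the arrays compared alone, and 947 when a change of over 1.5-fold was also asked. Leaving out 1 array at a time gave 2324 to 3515 calls, the fewest without knockdown 0 h replicate 1, where falls numbered 1152. The share of calls that were rises was 40.9%, against 52% with array medians subtracted, a step that moved the median change by 0.046.

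For the difference in response, against 4 probe sets, 829 were called with array weights, 7 with the replicate number as a block, 7 with it as a random block and 27 without the arrays numbered 4. Leaving out 1 array at a time gave 3 to 10, with 10 without control 2 h replicate 4. The causes of these shifts were not tested. For the paired arrays, the replicate number as a block gave 4245 calls for the 2 h change and, among the 252 genes and probe sets printed, altered no call beyond the 10 given with a blocked value in the report.

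No printed 2 h change or difference reversed its direction where it was called. Of the 197 printed genes called for the 2 h change, 23 lost the call in at least 1 setting. The knockdown of ORMDL3 at 2 h lay between -2.11 and -1.98 in all settings run. The arrays compared number 3 to 4 a group, and dim probe sets carry no detection value here, so levels below the lower quartile are the least certain.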

Other observations

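The probe set annotated to MIR221, picked out after its values were seen, had log2 levels of 7.70, 7.98, 7.85 and 7.25 on the knockdown arrays at 2 h, against 6.78, 5.90 and 5.52 at 0 h. The rise was 1.63 ± 0.36 (limma adjusted p = 0.000994), the groups did not overlap, and the difference from the rise of 1.76 in control cells was -0.13 (adjusted p = 0.923). The annotation gives the probe set only this symbol, so which RNA of the locus it reads is not known. The mature miRNA was not measured on its own. A mature miRNA of MIR221 is shown with its seed, bases 2 to 8, in capitals, from RefSeq at chrX:45746180-45746202, minus strand, build GRCh38.p14.
hsa-miR-221-3p: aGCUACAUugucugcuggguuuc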
